A study of Mus musculus with 48 samples.

Results

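The nuclear-encoded subunits of oxidative phosphorylation (OXPHOS) were examined in 3 mouse tissues: the liver, brown adipose tissue (BAT) and the epididymal white fat depot (eWAT). Members were the genes whose mouse symbol begins with Nduf followed by a, b, c, s or v and a digit, with Uqcr, with Cox4 to Cox8 followed by a, b or c, or with Atp5, leaving out symbols containing -ps. This gave 83 of the 56748 Ensembl identifiers in the count files, of which 40 belong by symbol to complex I, 8 to complex III, 17 to complex IV and 18 to complex V. The pattern left out 8 -ps symbols as well as the subunits Cox4i1, Cyc1 and Ndufab1. Ndufa4, grouped here by its symbol under complex I, is now counted as a subunit of complex IV. Ndufa11b, Ndufb4c, Ndufs6b and Cox6c2 are annotated as processed pseudogenes, and reads of a near-identical parent gene could be assigned to them, so their values are uncertain. After a filter on low counts 77 members were tested in liver, 79 in BAT and 80 in eWAT, and 77 had a mean of at least 1 CPM in every tissue.

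Complex I takes electrons from NADH and complex III passes them by way of cytochrome c to complex IV, which reduces oxygen. All 3 pump protons across the inner mitochondrial membrane, and complex V, the ATP synthase, lets protons return through its ring of c subunits to make ATP. Brown adipocytes are packed with respiratory chain but hold little ATP synthase, because their uncoupling protein Ucp1 returns the protons without ATP and releases heat. Several complex IV subunits exist as a ubiquitous form and as a form typical of heart and skeletal muscle, and brown fat also uses forms of the latter kind.

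The mice were male littermates, either hepAGT-/- (here KO), in which angiotensinogen (Agt) had been deleted in hepatocytes, or hepAGT+/+ (WT). All were kept on a 14:10 hour light cycle and ate a Western diet (TD.88137) for 12 weeks, which held 0.2% cholesterol and 21% milk fat. Housing was at 20 to 22 °C, called room temperature (RT), or at 30 °C, which is thermoneutral (TN) for mice. The Cre driver, the strain and the age are not given in the sources used here. Each of the 12 groups of tissue, genotype and housing had 4 libraries, which the labels call biological replicates.

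Total counts ran from 23.7 to 43.7 megacounts per library. Agt in liver was 276 to 503 CPM in WT and 125 to 207 CPM in KO libraries, without overlap. Marker sums matched the labelled tissues, with hepatocyte markers at 54075 to 94113 CPM in liver, brown adipocyte markers at 2284 to 10906 CPM in BAT and adipocyte markers at 23609 to 36135 CPM in eWAT. Some libraries held transcripts typical of neighbouring tissue. The sum of 12 skeletal muscle markers ran from 2.73 to 8477 CPM over the BAT libraries and exceeded 1000 CPM in 6 of them (KO RT replicates 14 and 19, KO TN replicates 2 and 5, WT TN replicates 6 and 24). In eWAT, WT RT replicate 18 held epididymis transcripts at 956 CPM. Hepatocyte markers were also counted in fat. In eWAT they summed to 115 to 4788 CPM in KO and 39.9 to 1612 CPM in WT at RT. At TN they were 52.7 to 489 CPM in KO and 26.2 to 1488 CPM in WT. In BAT they reached 2563 CPM, in the KO TN group. The source of these counts, and of the muscle and epididymis transcripts, was not tested. In BAT, WT RT replicate 12 stood apart from the other libraries of its group, with the lowest member level and an endothelial marker sum of 438 CPM against 136 to 167 CPM.

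Of all counts, members took 2.74% to 5.51% in BAT libraries, with 0.936% to 1.66% in those of eWAT and 0.943% to 1.34% in those of liver. The level of a gene is its CPM, the count per megacount of a library total that was scaled by TMM (trimmed mean of M values) within the tissue. Over the 77 members with at least 1 CPM in each tissue, the mean log2 CPM in WT at RT was 8.62 ± 0.37 (SD, n = 4) in BAT, 6.40 ± 0.19 in eWAT and 6.28 ± 0.14 in liver. Complex III had the highest mean log2 CPM in every tissue, at 10.05 ± 0.38 in BAT, 7.23 ± 0.21 in eWAT and 7.46 ± 0.10 in liver in the same groups. In liver and eWAT complex V came next (7.24 ± 0.10 and 7.18 ± 0.18), above complex I (5.86 ± 0.12 and 6.05 ± 0.18) and complex IV (5.52 ± 0.34 and 5.95 ± 0.26). In BAT the means of complexes IV (8.70 ± 0.33), V (8.66 ± 0.38) and I (8.29 ± 0.37) lay within 1 SD or little more of each other. These means are not corrected for transcript length and were scaled within each tissue. Only the same complex can therefore be compared, and only between groups of the same tissue. The joint fit given below had a negative median log2 difference of eWAT from liver (-0.46), although the eWAT mean here is higher.

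**Figure D1:**
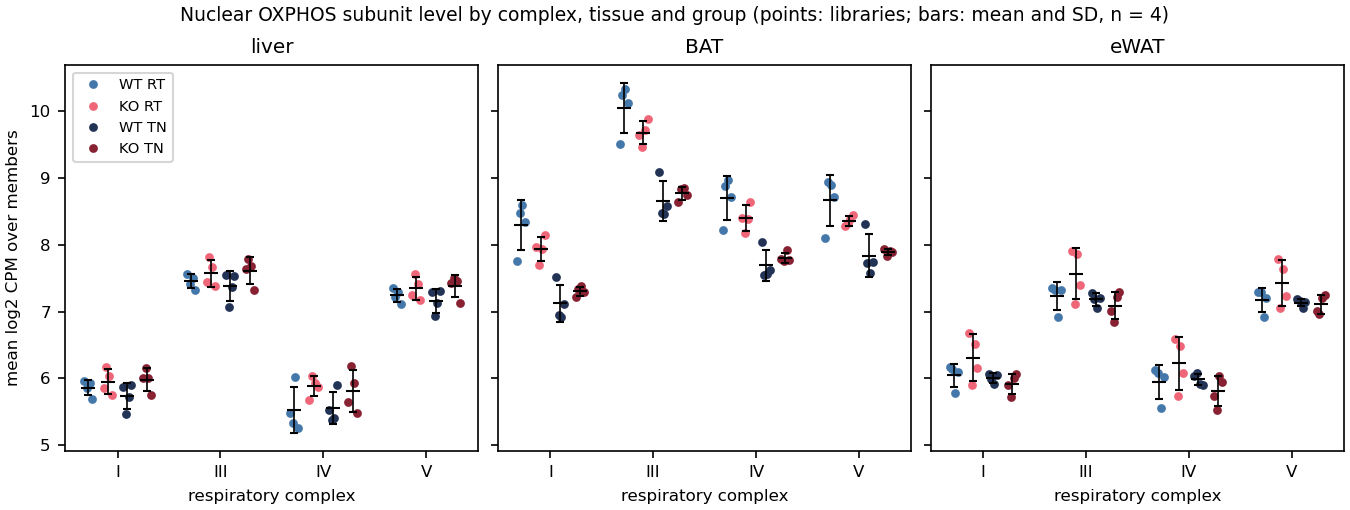
Mean log2 CPM over the members of complexes I, III, IV and V (x axis) in liver, BAT and eWAT, with 1 point per library and the mean and SD of the 4 libraries of a group. The 4 WT RT libraries of BAT lie above the WT TN libraries in every complex, except that in complex V WT RT replicate 12 (8.11) lies below WT TN replicate 24 (8.30). The WT RT and WT TN libraries of liver and of eWAT overlap.

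Tissue levels were compared in WT at RT in a joint edgeR fit over all 48 libraries, in which a gene was called when its quasi-likelihood p was under 0.05 after Benjamini-Hochberg adjustment across every gene in the fit. Of 80 members tested, 74 were higher and 2 lower in BAT than in liver, where 28.5% of all genes were called higher and 24.8% lower, and the median log2 difference of the members was 2.45. Against eWAT, 74 were higher and 1 lower in BAT (background 18.8% and 23%), with a median of 2.80. In bulk tissue, fewer cells of a type and less RNA per cell cannot be told apart. Between eWAT and liver, 5 members were higher and 39 lower in eWAT (background 28.8% and 25.2%), with a median of -0.46. This split depended on scaling, since with plain library totals 18 were higher and 12 lower and the median was 0.09.

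The largest tissue contrast lay in the complex IV isoforms Cox7a1 and Cox8b, the forms typical of heart and muscle, whose ubiquitous counterparts are Cox7a2 and Cox8a. Cox8b was 1161, 2852, 2861 and 2073 CPM in the WT RT libraries of BAT (replicates 12, 15, 17 and 18) and 15, 16.5, 7.36 and 23.4 CPM in those of eWAT (replicates 12, 13, 15 and 18). In liver Cox8b was listed at 0 in 3 of the 4 WT RT libraries and at 0.517 CPM in replicate 11. Cox7a1 was 874 ± 252 CPM in BAT, 3.72 ± 0.80 CPM in eWAT and 1.33 ± 1.69 CPM in liver (SD, n = 4), again with BAT wholly above the other tissues. Between BAT and eWAT the log2 difference was 8.28 for Cox7a1 (SE 0.74, edgeR adjusted p = 6.22e-12) and 7.58 for Cox8b (SE 1.11, edgeR adjusted p = 4.81e-07) in the joint fit. Levels were also divided by the length of all annotated exons of a gene together, as CPM per kilobase of exon. This length can exceed that of the main transcript, so ranks between genes are approximate. It was 360 bases for Cox8b, 619 for Cox8a and 6443 for Atp5l. On this measure Cox8b had the highest level of all members in BAT (6214), ahead of Cox6b1 (2234) and Cox6a1 (2113). In eWAT the highest was Cox8a (705), and in liver Cox6a1 (328) followed by Atp5a1 (314).

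Promoters of these isoform genes are shown because the counterparts of each pair differ in base composition as well as in tissue pattern. The sequences are the 250 bases before the RefSeq start of each gene (GRCm38.p6, 5′ to 3′ on the gene's strand), in lower case with matches to searched motifs in capitals.
Cox7a1 (chr7:30183921-30184170, + strand): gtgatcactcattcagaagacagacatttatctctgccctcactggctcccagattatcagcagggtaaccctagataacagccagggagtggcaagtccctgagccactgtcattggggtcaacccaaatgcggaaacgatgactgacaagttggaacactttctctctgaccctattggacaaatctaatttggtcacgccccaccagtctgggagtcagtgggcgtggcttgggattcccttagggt
Cox7a2 (chr9:79759854-79760103, - strand): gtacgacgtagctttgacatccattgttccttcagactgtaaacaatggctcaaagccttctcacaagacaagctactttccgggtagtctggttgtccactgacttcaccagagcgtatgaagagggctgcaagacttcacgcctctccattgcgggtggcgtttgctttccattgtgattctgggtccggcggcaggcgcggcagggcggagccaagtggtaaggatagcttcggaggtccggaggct
Cox8b (chr7:140900447-140900696, - strand): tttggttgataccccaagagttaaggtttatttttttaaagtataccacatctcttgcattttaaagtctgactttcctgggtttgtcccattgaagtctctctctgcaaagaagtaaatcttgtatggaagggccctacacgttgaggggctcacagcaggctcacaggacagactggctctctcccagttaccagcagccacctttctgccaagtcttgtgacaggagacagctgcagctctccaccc
Cox8a (chr19:7217617-7217866, - strand): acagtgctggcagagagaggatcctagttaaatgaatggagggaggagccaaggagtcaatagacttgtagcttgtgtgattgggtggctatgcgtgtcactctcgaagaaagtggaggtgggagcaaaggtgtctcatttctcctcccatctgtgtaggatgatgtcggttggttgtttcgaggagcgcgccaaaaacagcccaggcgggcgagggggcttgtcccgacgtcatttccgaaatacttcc
Cox6a1 (chr5:115348959-115349208, - strand): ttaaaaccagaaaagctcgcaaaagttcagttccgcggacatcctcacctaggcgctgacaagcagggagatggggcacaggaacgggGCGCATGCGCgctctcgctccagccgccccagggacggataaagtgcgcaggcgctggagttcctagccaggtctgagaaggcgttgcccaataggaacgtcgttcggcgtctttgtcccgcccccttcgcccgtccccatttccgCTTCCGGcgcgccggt

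Cox7a1 held 4 CG dinucleotides in this window and Cox8b held 1, against 14 in Cox7a2, 11 in Cox8a and 26 in Cox6a1. The median over the 63 members with a RefSeq promoter was 14, against 6 over the 27025 genes of the table. The motifs searched in the same window, on both strands, were GCGCATGC (nuclear respiratory factor 1), CCGGAAG (the GABP, or NRF2, core) and AAGGTCA (the estrogen-related receptor element). GCGCATGC was found in 7 of 63 members (11.1%) and in 2.56% of all genes, CCGGAAG in 11 members (17.5%) and 7.83%, and AAGGTCA in 5 members (7.9%) and 4.7%. Of the 5 promoters printed, only that of Cox6a1 held a match, a run in which GCGCATGC and its reverse complement overlap and a reverse-strand CCGGAAG.

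In BAT the isoform shares were also compared between housing temperatures. Cox7a1 held 67.4 ± 0.74% (SD, n = 4) of the Cox7a1 and Cox7a2 level per kilobase in WT at RT and 62.4 ± 0.98% at TN, ranging from 66.6% to 68.4% and from 61.4% to 63.8%, so the groups did not overlap. In KO the share was 68.6 ± 1.58% at RT and 64.9 ± 2.14% at TN, with ranges of 66.7% to 70.0% and 61.9% to 66.8% that overlapped by a narrow margin. Cox8b held 75.7 ± 4.31% of the Cox8b and Cox8a level in WT at RT and 69.3 ± 1.90% at TN, with lowest and highest values of 70.755% and 80.371% at RT and 66.483% and 70.700% at TN, so these groups only just separated. In KO the Cox8b share was 73.6 ± 2.81% at RT and 67.5 ± 3.82% at TN, and its ranges of 70.6% to 76.8% and 63.4% to 71.7% overlapped. These shares are a description, their size depends on the exon lengths used, and they were not tested. Nor was the part in them of muscle RNA, which marked some of the BAT libraries. WT TN replicate 24, which held the Cox8b share of 70.700%, was among those. In eWAT WT at RT the shares were 4.27 ± 0.55% for Cox7a1 and 5.66 ± 2.07% for Cox8b.

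**Figure D2:**
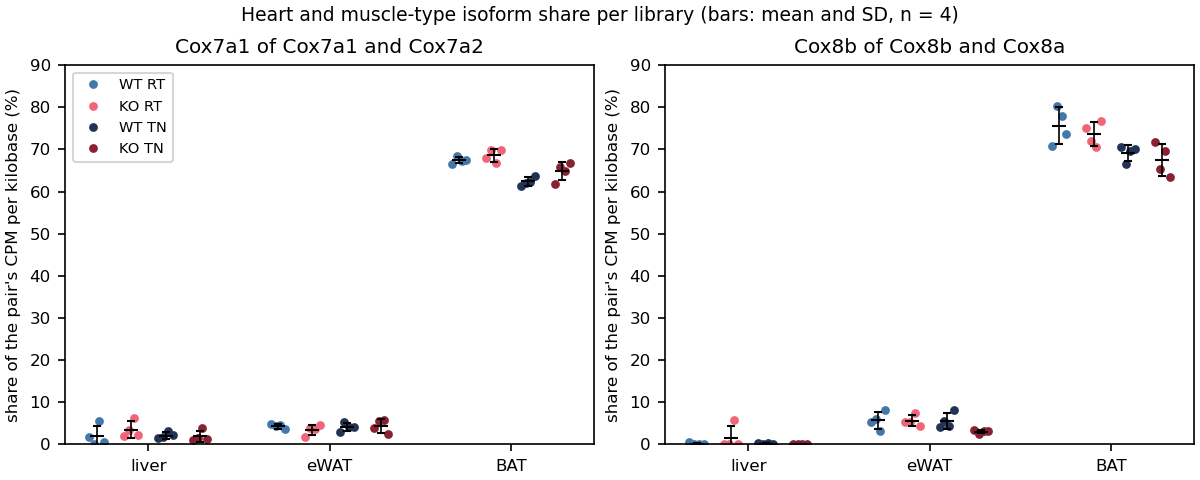
Share of Cox7a1 in the summed CPM per kilobase of Cox7a1 and Cox7a2 (left) and of Cox8b in that of Cox8b and Cox8a (right) in each library, by tissue and group, with mean and SD of 4 libraries. Shares in BAT lie above 60% and those in liver and eWAT below 10%, and in WT BAT the Cox7a1 share at TN lies below that at RT in every library.

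Complex V showed the reverse isoform pattern in BAT. Subunit c of the proton ring is encoded by Atp5g1, Atp5g2 and Atp5g3, and low Atp5g1 expression is known to limit the ATP synthase content of brown fat. These genes were singled out after their values were seen. Atp5g1 was 0.949, 8.10, 1.52 and 2.71 CPM in the WT RT libraries of BAT (replicates 12, 15, 17 and 18), against 27.7 ± 6.96 CPM in eWAT and 75.3 ± 15.2 CPM in liver (SD, n = 4). It was called lower in BAT than in liver (log2 difference -4.60, SE 0.63, edgeR adjusted p = 8.85e-08) and than in eWAT (-2.64, SE 0.59, edgeR adjusted p = 0.000348). Atp5g3 was the other member called lower in BAT than in liver (-0.75, SE 0.16, edgeR adjusted p = 8.89e-05), while Atp5g2 was higher (1.19, SE 0.15). Over the 16 BAT libraries, Atp5g1 was highest in WT TN replicate 24 (24.6 CPM), KO TN replicate 2 (21.7 CPM), WT TN replicate 6 (14.9 CPM) and KO RT replicate 14 (11.7 CPM). The same 4 libraries held the highest skeletal muscle marker sums (6067, 8477, 5999 and 4281 CPM). Cox6a2, the muscle form of the complex IV subunit whose ubiquitous form is Cox6a1, was also highest in these 4 libraries (66.0, 52.1, 23.8 and 21.9 CPM) and was listed at 0 in 7 BAT libraries. The part of muscle RNA in these 2 genes' values was not tested.

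Thermoneutral housing of WT mice was compared with RT in BAT, where heat production is less needed at TN. Of 79 members tested, 74 fell and 2 rose, against a background of 16.7% of all genes called lower and 15.9% called higher. The median log2 change of the members was -1.23, and 58 members fell by more than 1 on the log2 scale, whereas the median over all genes was 0.11. The mean log2 CPM of the members went from 8.62 ± 0.37 to 7.54 ± 0.28 (SD, n = 4). The libraries of the 2 temperatures did not overlap for 59 members lower and 1 higher at TN, against 27.2% of all genes without overlap. By complex, 38 of 39 complex I members fell, 8 of 8 of complex III, 13 of 15 of complex IV and 15 of 17 of complex V, with medians of -1.25, -1.41, -1.19 and -0.96.

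Within complex I the core electron-transfer subunits Ndufs8 and Ndufs1 spanned much of the range. Ndufs8, which binds iron-sulfur clusters, was 238, 500, 591 and 412 CPM at RT (replicates 12, 15, 17 and 18) and 169, 97.2, 106 and 121 CPM at TN (replicates 24, 6, 7 and 1). All TN libraries lay below all RT libraries, a 3.53-fold lower level (log2 change -1.82, SE 0.23, edgeR adjusted p = 2.57e-05). Ndufs1, the largest subunit of the electron-input module, fell from 1051 ± 83.2 to 548 ± 94.3 CPM (log2 change -0.94, SE 0.20, edgeR adjusted p = 0.00144). Ndufa1, a small membrane-arm subunit, fell 3.23-fold, and Ndufv1, which binds the NADH flavin, fell by 1.06 on the log2 scale. The pseudogene Ndufs6b had the most negative change of all members (-1.84, SE 0.27), from 7.66 ± 2.47 CPM at RT to 2.14 ± 0.44 CPM at TN.

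In complex III, Uqcr10 and Uqcrq, small accessory subunits, had the largest changes. Uqcr10 was 476, 941, 1025 and 802 CPM at RT and 341, 206, 225 and 225 CPM at TN in the same order of replicates (log2 change -1.70, SE 0.22, edgeR adjusted p = 3.38e-05). Every TN library lay below every RT library. The Rieske iron-sulfur protein Uqcrfs1 fell by 1.26 and the core protein Uqcrc1 by 0.94 on the log2 scale.

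In complex IV, Cox8b was 903, 600, 630 and 626 CPM at TN, against 1161 to 2861 CPM at RT (log2 change -1.70, SE 0.26, edgeR adjusted p = 0.000119). The groups did not overlap, and WT RT replicate 12 and WT TN replicate 24 were the closest libraries. Cox7a1 fell by 1.57, Cox6a1 by 1.30, Cox7a2 by 1.24, Cox8a by 1.17, Cox5b by 1.18 and Cox5a by 1.12 on the log2 scale, so the ubiquitous forms fell as well. Cox7a2l, a factor that joins complexes III and IV into supercomplexes, fell by 0.62 with TMM scaling and by 0.06 with plain library totals (edgeR adjusted p = 0.698). In complex V, the catalytic subunits changed less: Atp5b fell from 7507 ± 681 to 4580 ± 725 CPM (log2 change -0.71, SE 0.17, edgeR adjusted p = 0.00409) and Atp5a1 fell by 0.91.

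The 2 members that rose were expressed at low levels. Ndufa4l2, a paralog of Ndufa4 induced under low oxygen, was 8.16, 1.71, 4.16 and 3.70 CPM at RT and 4.95, 12.1, 11.2 and 11.2 CPM at TN (log2 change 1.15, SE 0.39, edgeR adjusted p = 0.0302). The groups overlapped, and this call was lost in 7 of 17 alternatives, with adjusted p up to 0.0835. Cox6b2, a form of Cox6b1 typical of testis, was 1.36 to 3.12 CPM at RT and 3.49 to 7.08 CPM at TN (log2 change 1.03, SE 0.32, edgeR adjusted p = 0.0193). Without the 6 muscle-marked libraries its adjusted p was 0.158. The members not called were Cox6a2, Atp5g1 and Atp5s.

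The fall was also called in fits, chosen after the data were seen, that left out or adjusted for the libraries with muscle RNA. Without the 6 libraries, which include WT TN replicates 6 and 24 but no WT RT library, 74 members were called lower and 1 higher in WT, with a median of -1.36. With the muscle marker sum as a covariate 74 were lower and 2 higher. In WT this sum was 2.73 to 534 CPM at RT and 15.0 to 6067 CPM at TN, so the covariate is partly tied to housing. The size of the fall did depend on scaling: with plain library totals 61 members were lower and 2 higher and the median was -0.65, while the median over all genes moved from 0.11 to 0.65. Brown adipocyte markers summed to 6744 to 10906 CPM at RT and 2891 to 6313 CPM at TN, macrophage markers to 32.0 to 80.7 and 139 to 277 CPM, and endothelial markers to 136 to 438 and 259 to 831 CPM. Their part in the result was not tested.

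**Figure D3:**
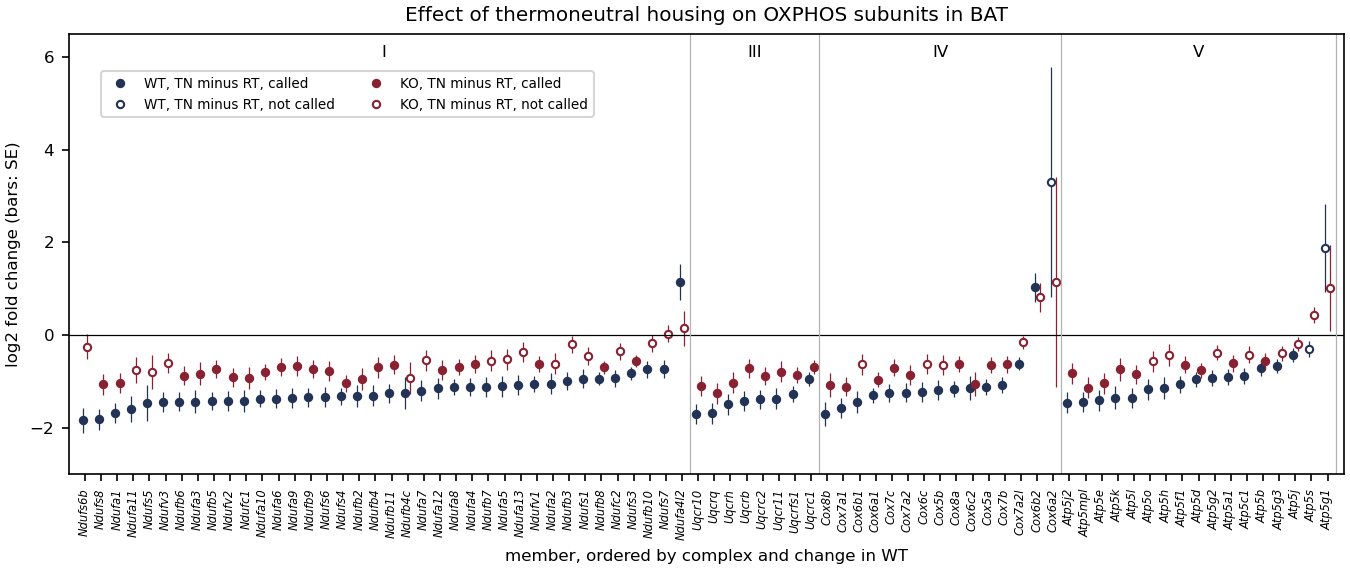
Log2 fold change of TN against RT in BAT for 78 of the 79 members in WT (dark blue) and KO (dark red), with SE, ordered by complex and by the change in WT. Filled points were called. Nearly all WT points lie below 0 and below the KO point of the same gene, and Cox6a2 and Atp5g1 have wide errors.

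In KO mice the same housing contrast in BAT gave 49 of 79 members lower and 0 higher, against 8.52% of all genes called lower, with a median log2 change of -0.69. The WT and KO contrasts share no library but come from the same fit. All 49 were among the 74 members that fell in WT, which is 66.2% of the latter. Since 74 of the 79 members tested fell in WT, most of any 49 members would be among them, so this overlap was largely fixed in advance. By complex, 23 of 39 members of complex I, 8 of 8 of complex III, 9 of 15 of complex IV and 9 of 17 of complex V fell. Uqcrq was 745, 584, 741 and 1038 CPM at RT (replicates 10, 14, 19 and 9) and 348, 306, 358 and 289 CPM at TN (replicates 2, 3, 4 and 5), without overlap (log2 change -1.26, SE 0.23, edgeR adjusted p = 0.0012). Atp5mpl, a small ATP synthase subunit, fell by 1.13, Cox7a1 by 1.11, Uqcr10 by 1.10 and Cox8b by 1.07 on the log2 scale, the last from 1594 ± 430 to 758 ± 93.6 CPM. The call count depended on the libraries: it was 9 without the muscle-marked libraries, which left 2 KO libraries at each temperature, and 31 without KO TN replicate 4, while the median without the muscle-marked libraries was -0.69. With plain library totals 20 were lower and 3 higher. Brown adipocyte markers summed to 6457 to 10439 CPM at RT and 2284 to 5069 CPM at TN, and macrophage markers to 35.2 to 43.8 and 107 to 162 CPM, both without overlap. Their part in the result was not tested.

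The difference between the KO and the WT housing effect was tested as an interaction. It was positive, meaning a smaller fall in KO, for 75 of 79 members, with a median of 0.51 against -0.01 over all genes. Genes in general with a coding sequence under 500 bases had a median of 0.28, against 0.55 in short members. For longer genes it was -0.03, against 0.48 in longer members. EdgeR called 0 members, as it called 0% of all genes. The lowest adjusted p among members was 0.435, 23 members had an unadjusted p under 0.05, and DESeq2 called 1. For Cox8b the interaction was 0.62 (edgeR adjusted p = 0.539).

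The genotypes were also compared directly in BAT. At RT the KO mean over members was 8.29 ± 0.15 and the WT mean 8.62 ± 0.37 log2 CPM (SD, n = 4). The members' median log2 change was -0.40, against 0.004 over all genes, and 74 of 79 changes were negative. Short genes in general, with a coding sequence under 500 bases, also had a negative median (-0.28, against -0.40 in short members). Longer genes had a median of 0.02, against -0.34 in longer members. No member was called with edgeR (background 0.0887%), 31 had an unadjusted p under 0.05, and DESeq2 called 3. The libraries of the genotypes did not overlap for 1 of 79 members, lower in KO, against 9.26% of all genes without overlap. That member, Ndufs1, was 943, 1134, 1034 and 1095 CPM in WT (replicates 12, 15, 17 and 18) and 686, 857, 827 and 518 CPM in KO (replicates 10, 14, 19 and 9). Its log2 change was -0.54 (SE 0.19, edgeR adjusted p = 0.156). Cox8b overlapped between the genotypes (log2 change -0.49, SE 0.25, edgeR adjusted p = 0.293). The result turned on WT RT replicate 12: without it, 36 members were called lower and 1 higher in KO, with a median of -0.57. Endothelial markers summed to 136 to 438 CPM in WT and 388 to 804 CPM in KO, and skeletal muscle markers to 2.73 to 534 and 14.9 to 4281 CPM, both with overlap. The part of the endothelial markers was not tested. Fits without the muscle-marked libraries, or with the muscle marker sum as a covariate, also called no member. As the main fit called none either, these counts cannot show the part of muscle RNA. At TN, edgeR called 0 members (background 0%), 2 had an unadjusted p under 0.05, DESeq2 called 0, and the median was 0.12.

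Other mitochondrial genes of lists chosen for comparison moved with the members in BAT. In WT at TN against RT, 4 of 4 complex II genes, 13 of 13 genes of the citric acid cycle, 76 of 77 mitochondrial ribosomal protein genes and 37 of 41 assembly factors fell, with medians of -1.15, -1.02, -0.98 and -0.98. Of the 13 proteins encoded in the mitochondrial genome, 6 fell and the median was -0.76. Of 15 regulators, 6 fell and 2 rose, the latter near the share of all genes that rose (15.9%, with 16.7% lower). The nuclear receptor Esrra, which drives OXPHOS genes, fell from 144 ± 2.26 to 78.8 ± 12.5 CPM (log2 change -0.87, SE 0.15, edgeR adjusted p = 0.000405), and Tfam and Gabpa fell by 0.82 and 0.68. The coactivator Ppargc1a was 47.9 ± 11.9 CPM at RT and 40.3 ± 22.8 CPM at TN and Ppargc1b was 55.2 ± 18.8 and 63.3 ± 21.7 CPM, neither called. Ucp1 fell by 1.86 on the log2 scale. The ATP synthase inhibitor Atpif1, which the symbol pattern leaves out, was 15.3 ± 4.74 CPM at RT and 20.0 ± 2.13 CPM at TN and was not called.

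In eWAT, 11 of 80 members were higher in KO than in WT at RT, 0 were lower and 69 were not called (background 1.2% of all genes higher), with a median log2 change of 0.31 against -0.002 over all genes. The libraries of the genotypes did not overlap for 9 members higher and 1 lower in KO, against 10.9% of all genes without overlap. The count of members called depended on single libraries. Leaving out KO replicate 10 or 19 left 3 and 1 members called, leaving out WT replicate 13, 15 or 18 left 6, 1 and 3, and leaving out KO replicate 16 gave 27. All of these were higher in KO, and a fit to only the 8 libraries compared called 4. The 11 comprised 8 of complex I, 2 of complex III, 0 of complex IV and 1 of complex V. Ndufb10, an accessory subunit of the membrane arm, was 140, 124, 112 and 117 CPM in WT (replicates 12, 13, 15 and 18) and 219, 150, 203 and 177 CPM in KO (replicates 10, 16, 19 and 9). The groups did not overlap, and KO replicate 16 was the closest to WT (log2 change 0.60, SE 0.12, edgeR adjusted p = 0.00864). Ndufs7, an iron-sulfur subunit at the end of the electron path, rose by 0.63, Ndufa5 by 0.60 and Atp5c1, the central stalk of the ATP synthase, by 0.54, each with an overlap between the groups. Ndufs1 was 130, 148, 136 and 150 CPM in WT and 191, 163, 200 and 187 CPM in KO, without overlap (log2 change 0.40, SE 0.095, edgeR adjusted p = 0.0239). Ndufv1 and Uqcrfs1 rose by 0.42 and 0.48, also without overlap.

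Members of related lists were called in the same direction in this comparison: 7 of 13 citric acid cycle genes, 2 of 4 complex II genes, 6 of 77 mitochondrial ribosomal protein genes and 3 of 41 assembly factors rose, and 0 of these fell. Ppargc1a rose by 1.30 (SE 0.31, edgeR adjusted p = 0.023) and Esrra by 0.44 (edgeR adjusted p = 0.046). Macrophage markers summed to 405 to 465 CPM in KO and 494 to 684 CPM in WT, and general adipocyte markers to 24677 to 36135 and 26865 to 31278 CPM. Their part in the result was not tested.

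In KO eWAT, 11 of 80 members fell and 0 rose from RT to TN (background 0.718% lower), with a median log2 change of -0.44. This contrast shares its 4 RT libraries with the genotype comparison at RT. Cox8b was 22.1, 12.0, 25.6 and 13.1 CPM at RT (replicates 10, 16, 19 and 9) and 6.00, 4.38, 6.92 and 8.41 CPM at TN (replicates 21, 3, 4 and 5), 2.84-fold lower and without overlap (log2 change -1.50, SE 0.34, edgeR adjusted p = 0.036). The other 10 changes lay between -0.65 (Ndufa5) and -0.47 (Ndufv1), among them Cox5a (-0.60), Uqcrfs1 (-0.58), Uqcrc1 (-0.51) and Ndufs1 (-0.47). The count was 0 when KO RT replicate 10 or 19 or KO TN replicate 21 or 3 was left out, 1 without KO TN replicate 4, and 45 without KO RT replicate 16. It was also 0 in a fit to only the 8 libraries compared, in which the median was -0.47. Brown adipocyte markers summed to 13.4 to 18.9 CPM at RT and 6.22 to 12.2 CPM at TN, and macrophage markers to 405 to 465 and 645 to 696 CPM, both without overlap. Their part in the result was not tested.

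**Figure D4:**
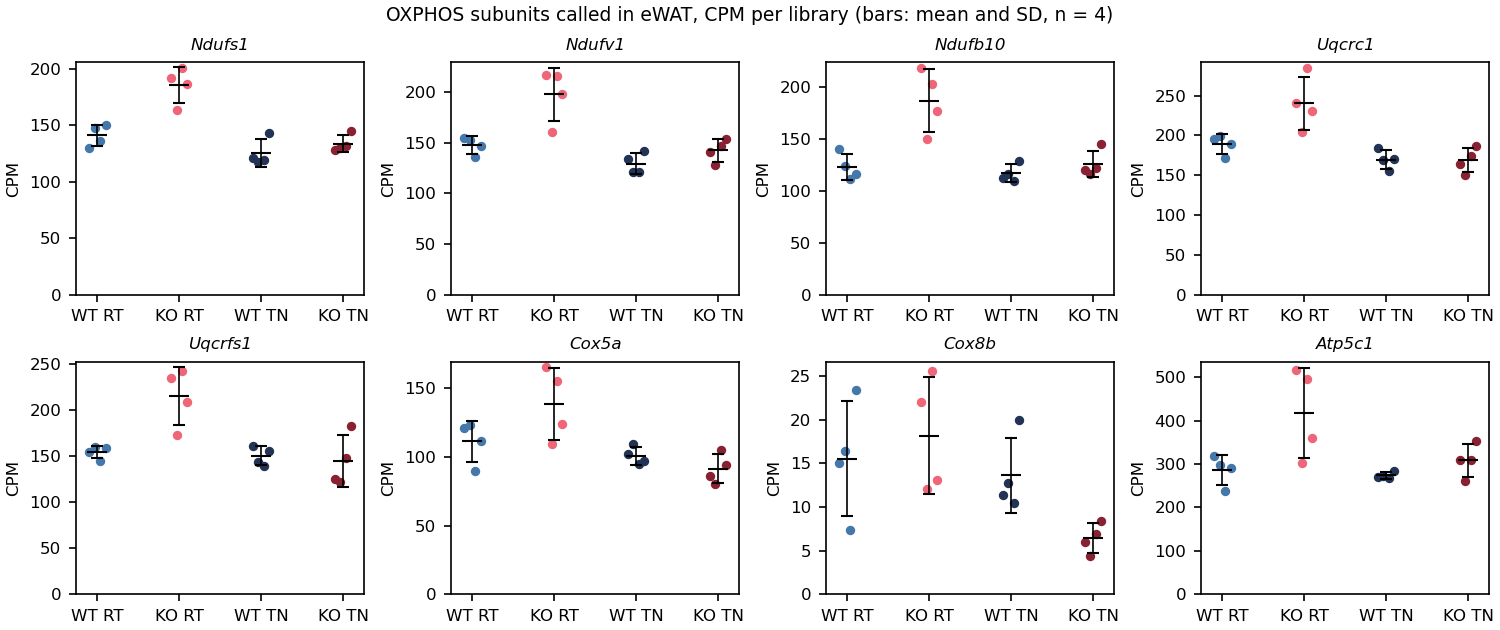
CPM per library of 8 members called in eWAT, by group, with the mean and SD of 4 libraries. The KO RT libraries lie highest for Ndufs1, Ndufv1 and Ndufb10, while for Cox5a, Cox8b and Atp5c1 they overlap the WT RT libraries.

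In WT eWAT housing had no called effect on any member with edgeR: 0 were called (background 0%), 1 had an unadjusted p under 0.05, DESeq2 called 0, and the median was -0.01. KO against WT at TN likewise gave 0 members with edgeR (background 0.586%), 4 with an unadjusted p under 0.05 and 1 with DESeq2, with a median of -0.11. The interaction was negative for 74 of 80 members, with a median of -0.41 against 0.03 over all genes. Genes in general with a coding sequence under 500 bases had a median of -0.20, against -0.43 in short members. For longer genes it was 0.06, against -0.36 in longer members. EdgeR called 0 members (background 0%), 28 had an unadjusted p under 0.05, and DESeq2 called 0.

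In liver at TN, 5 of 77 members were higher and 2 lower in KO than in WT (background 1.34% and 1.85%), the lower ones near the share over all genes. These calls depended on single libraries: without KO replicate 22 or 4 or WT replicate 6, 0 members were called with edgeR, and without WT replicate 1, 24 or 7 there were 1, 3 and 2. DESeq2 called 7 higher and 5 lower, and with plain library totals 8 were higher and 0 lower. The members had a median log2 change of 0.24 against 0.05 over all genes. Atp5l, subunit g of the ATP synthase membrane part, was 126, 109, 122 and 137 CPM in WT (replicates 1, 24, 6 and 7) and 168, 247, 321 and 167 CPM in KO (replicates 2, 22, 4 and 5), without overlap (log2 change 0.87, SE 0.21, edgeR adjusted p = 0.03). Uqcrh, the hinge protein of complex III, rose by 0.81, Atp5e, the smallest stalk subunit, by 0.72 with overlap, and the complex I subunits Ndufb9 and Ndufb4 by 0.70 and 0.68. Ndufs1 was 176, 154, 168 and 163 CPM in WT and 127, 129, 114 and 122 CPM in KO, without overlap (log2 change -0.42, SE 0.11, edgeR adjusted p = 0.0291). Ndufa10 fell by 0.52. Of the citric acid cycle genes 4 of 13 fell and 0 rose, with a median of -0.20. Macrophage markers summed to 154 to 189 CPM in WT and 190 to 456 CPM in KO, B cell markers to 7.64 to 15.1 and 15.7 to 35.3 CPM, and the brown adipocyte list to 93.7 to 108 and 44.7 to 73.3 CPM, each without overlap. Hepatocyte markers overlapped, at 71229 to 91293 and 75559 to 94113 CPM. Their part in the result was not tested.

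The changes varied with coding length. Of the 48 members with a longest coding sequence of up to 500 bases 45 had a positive change, with a median of 0.283, whereas of the 26 longer members 14 were positive and 12 negative, with a median of 0.065. The same measure over all genes gave medians of 0.28 for 1189 short and -0.006 for 12444 long genes, so the short members lay at the level of short genes in general. Spearman's rho between coding length and change was -0.56 across 74 members and -0.20 across 13633 genes of the same libraries, given as a description since genes are not independent replicates. In the corresponding comparison at RT the medians were 0.16 and 0.05 for short and long members. The cause of this pattern was not tested. Changes varied with coding length in other comparisons too. Over members and over all genes, rho was 0.665 and 0.225 for KO against WT in eWAT at TN, -0.497 and -0.073 for KO housing in liver, and 0.336 and 0.247 for WT housing in BAT. In the last of these the median change was -1.25 in short and -1.07 in long members, against -0.40 and 0.17 over all short and long genes.

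**Figure D5:**
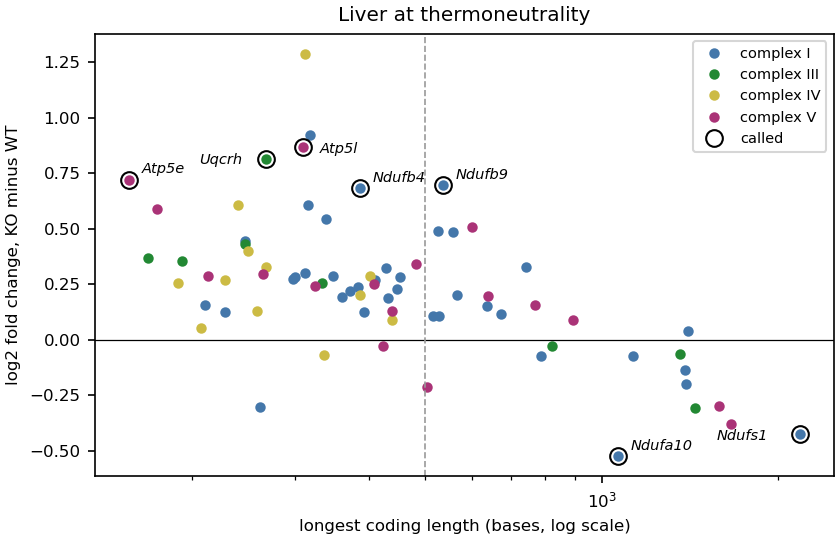
Log2 fold change of KO against WT in liver at TN plotted against the longest coding length (log scale, dashed line at 500 bases) for 74 members, coloured by complex, with called members circled and named. Short members lie mostly above 0, and the called members Ndufa10 and Ndufs1, which fell, lie well above 500 bases.

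The other liver comparisons gave 0 called members with edgeR: KO against WT at RT (background 0.0853%, 1 member at an unadjusted p under 0.05, median 0.13), TN against RT in WT (0.0227%, 0 members, -0.10) and in KO (0.114%, 2 members, 0.00), and the interaction (0%, 4 members, 0.11). DESeq2 also called 0 in each of these 4.

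Whether an effect on members differed between tissues was tested in the joint fit. The WT housing effect was more negative in BAT than in liver for 64 of 80 members (background 8.65% of all genes lower) and than in eWAT for 68 (7.7%), with 0 in the other direction and medians of -1.15 and -1.20. With plain library totals 32 and 41 were more negative and 1 and 2 more positive, and the medians were -0.59 and -0.67. Fewer were also called when the replicate number was used as a block (last paragraph). For Ndufs1 the difference from liver was -1.04 (SE 0.19, edgeR adjusted p = 0.000167) and for Uqcrfs1 -1.20 (SE 0.20, edgeR adjusted p = 4.3e-05). In KO the housing effect differed between BAT and liver for 13 members, all more negative in BAT (background 2.57%). With plain library totals 9 were more negative and 1 more positive. All calls of this KO difference were lost when the replicate number was used as a block (last paragraph). The count of 13 became 5 to 8 without BAT KO RT replicate 9, BAT KO TN replicate 2, liver KO RT replicate 9 or 10 or liver KO TN replicate 4 or 22, and 20 without liver KO RT replicate 16. Between BAT and eWAT the housing effect in KO differed for 0 members with edgeR (background 2.88%, 7 at an unadjusted p under 0.05, median -0.19), for 2, both more positive in BAT, with plain library totals, which turned the median to 0.105, and for 1 without eWAT KO RT replicate 10. DESeq2 was not run on the joint fit.

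At RT the genotype effect was more negative in BAT than in eWAT for 17 members and more positive for 0 (background 1.3% lower), with a median difference of -0.73. With plain library totals the count was 9. Nearly all of these calls were lost when the replicate number was used as a block (last paragraph). The 17 included Ndufs1 (-0.95, SE 0.19, edgeR adjusted p = 0.00573), whose level was lower in KO in BAT and higher in KO in eWAT. Without BAT WT replicate 12 the count was 54 and without eWAT KO replicate 16 it was 38. It fell to 11 without BAT KO replicate 10 or 14 or without eWAT WT replicate 18, to 10 without BAT WT replicate 18, and to 4 to 7 without BAT WT replicate 15 or 17, eWAT KO replicate 10 or 19 or eWAT WT replicate 15. Between eWAT and liver the genotype effect at RT gave 0 called members with edgeR (background 0.278%, 13 at an unadjusted p under 0.05, median 0.18).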

How the data were processed

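RNA-seq was made from snap-frozen liver, BAT and eWAT, with 48 libraries in 12 groups of 4. The deposited files hold raw counts per Ensembl gene, made by the authors. The submitters' processing notes name fastp, STAR 2.6.1d, featureCounts 1.5.0-p3 and GRCm38/mm10, and the annotation release and strand setting are not given in the sources used here. Symbols were matched to 52073 of 56748 identifiers (91.8%). Counts were analysed in R 4.3.3 with edgeR 4.0.16 (limma 3.58.1): filterByExpr with a minimum count of 10, TMM scaling, a robust quasi-likelihood fit over the 16 libraries of a tissue (over all 48 for contrasts between tissues), and Benjamini-Hochberg adjustment over all genes tested, with a threshold of 0.05. Log2 CPM used a prior count of 2. The script was tested on simulated data. DESeq2 1.42.0, other scalings and filters, and leaving out each library were alternatives. Leaving out the 6 BAT libraries over 1000 CPM of muscle markers, and the muscle covariate, were chosen after seeing the data.

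The members and lists were chosen with earlier results of these data known. Genes were named by a rule: fixed isoform pairs and core subunits, and up to 4 called members per direction with the largest change; a few others were named after their values were seen. Total counts of 23.7 to 43.7 megacounts per library limit the precision of genes near 0. The values of 1 member are not reported here, though it is included in the counts. Promoters came from RefSeq (GRCm38.p6).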

Additional observations from a re-analysis of the deposited data

Results flagged for a closer look

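Within groups of 4 libraries, a highest or lowest value was singled out when its gap to the nearest other library exceeded the share of the range set by the critical value of Dixon, which chance does in about 1 in 20 groups. Of 60 complex means 2 were singled out, and of 204 groups of single members 19.

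In BAT, WT TN replicate 24 was highest for the complex IV mean (8.034 log2 CPM, others 7.552 to 7.622), for Cox7a2 (415.3 CPM), Cox8b (902.7 CPM), Ndufs1 (688.2 CPM) and Uqcrc1 (983.0 CPM), and lowest for Ndufa4l2 (4.946 CPM). WT RT replicate 12 was lowest for Ndufv1 (935.8 CPM, others 1247 to 1308) and Uqcrfs1 (911.4 CPM). KO TN replicate 2 was lowest for Cox8a (548.4 CPM) and Ndufv1 (458.2 CPM). For Cox6a2, WT RT replicate 15 was highest (8.103 CPM).

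In eWAT, WT RT replicate 15 was lowest for the complex III mean (6.917 log2 CPM, others 7.318 to 7.356) and for Ndufa4 (198.5 CPM). At TN, WT replicate 6 was lowest for Ndufa4l2 (4.497 CPM) and WT replicate 8 highest for Ndufs1 (143.4 CPM).

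In liver, Cox8b was 7.346 CPM in KO RT replicate 19, 0.065 CPM in KO TN replicate 4 and 0.517 CPM in WT RT replicate 11, with the other libraries of each group at 0. Cox6a2 was 0.683 CPM in KO TN replicate 5 and 0.069 CPM in WT TN replicate 6. Uqcrc1 was 253.5 CPM in WT RT replicate 15, against 223.8 to 227.0 CPM.

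Some effects differed between tissues in the joint edgeR fit, with lower counts when the replicate number was used as a block (last paragraph). The WT housing effect differed between BAT and liver for 64 members and between BAT and eWAT for 68, the KO housing effect between BAT and liver for 13, and the genotype effect at RT between BAT and eWAT for 17. For the WT housing effect, BAT minus liver was -1.041 for Ndufs1, -1.197 for Uqcrfs1, -0.979 for Cox5a and -0.810 for Atp5b on the log2 scale. BAT minus eWAT was -0.765, -1.219, -0.966 and -0.568 for the same genes. For the genotype effect at RT, BAT minus eWAT was -0.947 for Ndufs1.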

How the results depend on the processing

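Plain library totals in place of TMM moved the median over all genes in BAT from 0.11 to 0.65 (WT housing effect) and from 0.04 to 0.42 (KO), since TMM factors in BAT ran from 0.751 to 1.323. With plain totals 23 members were called for the KO housing effect in BAT, 33 for its difference in WT between BAT and liver, 43 between BAT and eWAT, 2 for the KO difference between BAT and eWAT and 9 for the genotype difference between BAT and eWAT, and the eWAT to liver difference of Ndufv1 turned from -0.50 to 0.046. The members' median went to -0.653 (BAT, WT housing), -0.301 (BAT, KO housing), 2.069 (BAT against eWAT), 0.087 (eWAT against liver), -0.591 and -0.670 (WT housing, BAT against liver and eWAT), and -0.354 and 0.105 (the same in KO). DESeq2 called 12 members in liver KO against WT at TN, 3 and 1 in BAT (genotype at RT, interaction), and 18, 1 and 33 in eWAT (genotype at RT, genotype at TN, KO housing). A filter of 1 CPM in 4 libraries gave 17 for eWAT KO housing. The 8 libraries compared alone gave 4 (eWAT genotype at RT) and 0 (eWAT KO housing). Without the 6 muscle-marked libraries 9 members were called for BAT KO housing. The cause of these moves was not tested.

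Leaving out 1 library at a time, the count ran from 0 to 8 for liver genotype at TN, 0 to 37 for BAT genotype at RT, 73 to 76 and 31 to 48 for BAT housing in WT and KO, and 1 to 27 and 0 to 45 for eWAT genotype at RT and KO housing. It ran from 76 to 77, 75 to 75 and 40 to 45 for BAT against liver, BAT against eWAT and eWAT against liver. For the differences of the WT housing effect it ran from 60 to 68 (liver) and 64 to 69 (eWAT), of the KO housing effect from 5 to 20 and 0 to 1, and of the genotype effect from 4 to 54. It was 0 throughout for the other comparisons. Over the named members, 1979 of their alternative values kept direction and call, 266 lost the call, 3 gained it and 1 reversed.

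Replicate numbers recur across tissues, each within a single combination of genotype and housing. Over 35 same-numbered pairs the correlation of deviations from the group means ran from -0.239 to 0.122 (median 0.007), 1 exceeded 0.1 and 8 were best with their own number. Low correlations between different tissues cannot show that same-numbered libraries came from different animals. The main joint fit treated all libraries as independent and did not account for a shared animal. With the replicate number as a block, 39 and 17 members were called for the WT housing difference of BAT from liver and eWAT, 0 for the KO difference from liver and 1 for the genotype difference from eWAT.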
